A study of Mus musculus with 10 samples.

Results

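The clustered protocadherin genes are 57 of the 21887 mouse protein-coding genes in the annotation used here. They were taken as the RefSeq protein-coding symbols of the alpha, beta and gamma clusters in the 1 Mb of chromosome 18 that holds them (build mm10), from the start of Pcdha1 at 36930285 to the shared gamma end at 37841873. By name they fall into 5 C-type genes (Pcdhac1, Pcdhac2, Pcdhgc3, Pcdhgc4 and Pcdhgc5), 12 alternate alpha genes, 22 beta genes, 12 alternate gamma A genes and 6 alternate gamma B genes. H3K4me3, a histone mark of active promoters, had been mapped by chromatin immunoprecipitation and sequencing in neuronal nuclei, sorted by the nuclear protein NeuN, from hippocampal area CA1. The title of the study links heart failure with impaired memory. There were 4 libraries from male CaMKIIδC transgenic mice (transgenic) and 4 from male wild-type littermates (control), all aged 3 months. CaMKIIδC is an isoform of a calcium- and calmodulin-dependent protein kinase, and the labels do not name the promoter that drives the transgene. The treatment protocol describes drinking water with the histone deacetylase inhibitor vorinostat or with vehicle for transgenic mice, and with vehicle for controls, from 2 months of age for 4 weeks. None of these 8 libraries carries a drug label, so which water the transgenic mice had cannot be read from the labels. Group names and library numbers are alike in the labels and in the names of the peak lists, but the code letters of the 2 groups differ between them, and libraries are named here by group and number. The labels do not say whether each library is a different animal. The p-values therefore describe spread among samples, and that spread may be technical.

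Clustered protocadherins are cell-surface adhesion proteins that give neurons distinct identities, used for self-avoidance of branches and for wiring. In the alpha and gamma clusters each gene has its own promoter and variable exon, which encodes the extracellular part, spliced to constant exons shared by the cluster, whereas a beta gene is a single exon. A single neuron is known to choose a few alternate promoters at random, under the control of CTCF, cohesin and DNA methylation, while C-type promoters are used more regularly. In bulk chromatin, a promoter marked in few nuclei and one marked weakly in many cannot be told apart.

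All 57 promoters passed the filter of a peak in at least 4 of the 8 libraries, which 14260 of the 21887 genes passed. The measure was the covered length, the number of bases out of 2001 around the start of a gene that lay inside peaks. The start of a member is its lower coordinate, since the clusters are transcribed toward higher coordinates. Other genes were measured at their best covered listed start or gene end, which favours them in comparisons with members. A peak was present in all 8 libraries at 49 of the 57 promoters (86.0%), against 13116 of 14260 promoters tested (92.0%). By class these were 5 of 5 C-type, 9 of 12 alternate alpha, 18 of 22 beta, 12 of 12 alternate gamma A and 5 of 6 alternate gamma B promoters. The other 8, namely Pcdha2, Pcdha7, Pcdha8, Pcdhb5, Pcdhb9, Pcdhb13, Pcdhb18 and Pcdhgb4, had a peak in 7 libraries each. Of these 8 gaps, 1 lay in transgenic library 1, against 4 in control library 1, 2 in control library 2 and 1 in control library 3.

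The lists held 60388 to 102285 peaks in the transgenic and 51903 to 66811 in the control libraries, and covered 43.6 to 46.7 Mb of the autosomes in the transgenic and 36.2 to 41.6 Mb in the control libraries. Transgenic libraries 1 and 4 and control libraries 2 and 3 held 13023 to 31362 peaks on the X chromosome, against 1145 to 1293 in the other 4, and 31362 of them were in transgenic library 1. No read counts were used, so the depth of a library is unknown. On marker lists of cell types, peaks were present in all 8 libraries at 7 of 8 neuronal and 5 of 6 CA1 promoters. No peak lay at the start used for the eighth, Rbfox3, which encodes NeuN, nor at the gene ends used for Rad21 and Nipbl, which every cell uses, so a value of 0 at a gene position need not mean that the gene lacks the mark. On the other lists, a peak was present in all 8 libraries at 2 of 5 astrocyte and 1 of 7 oligodendrocyte-lineage promoters. The count was 0 of 5 for microglial, 2 of 5 for endothelial and 0 of 4 for cardiomyocyte promoters. The part of these other cell types in the results was not tested.

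On average the C-type promoters carried the widest and tallest marks of the clusters, with the least spread between libraries. They were covered over 1437 ± 44.4 bp on average in the transgenic and 1456 ± 54.3 bp in the control libraries (SD, n = 4 each). Alternate gamma A promoters averaged 1042 ± 18.5 bp in the transgenic and 958 ± 55.9 bp in the control libraries. Beta promoters averaged 843 ± 133 bp in the transgenic and 671 ± 96.0 bp in the control libraries. The C-type mean was above that of each other class in all 8 libraries. Alternate alpha promoters averaged 753 ± 65.5 bp in the transgenic and 675 ± 104 bp in the control libraries. Alternate gamma B promoters averaged 700 ± 62.9 bp in the transgenic and 572 ± 75.6 bp in the control libraries. Over all promoters tested the mean was 1327 ± 94.6 bp in the transgenic and 1316 ± 52.6 bp in the control libraries. Only the C-type class lay above that mean, and the median member stood at the percentile 14.9 of all promoters tested for its mean covered length. This sets members at a fixed position against other genes at their best covered one.

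**Figure D1:**
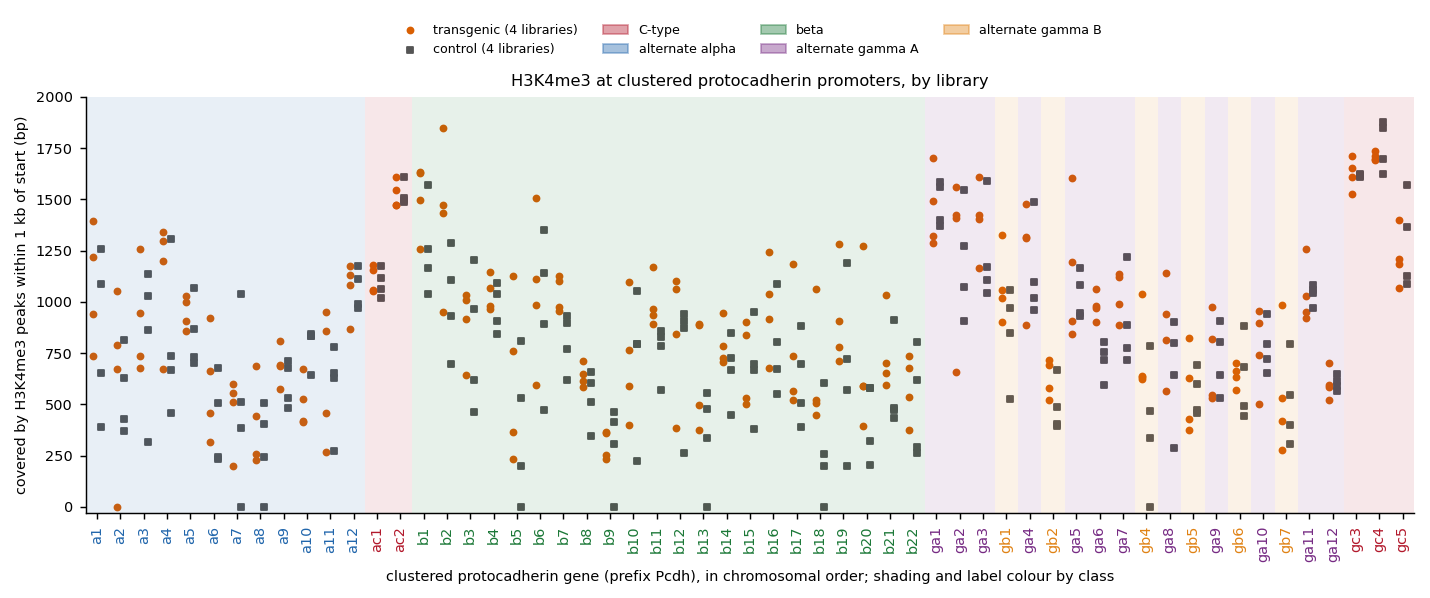
Covered length within 1 kb of the start (bp, vertical axis) for each of the 57 genes in chromosomal order, with transgenic libraries as circles and control libraries as squares, and shading by class. All 5 C-type genes lie above 1000 bp in every library, as do Pcdhb1, Pcdhga1 and Pcdhga3, whereas most beta and alternate alpha genes spread widely between libraries.

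Among the C-type genes, Pcdhgc4 (start 37815079) was covered over 1709, 1694, 1696 and 1738 bp in transgenic libraries 1 to 4, against 1695, 1848, 1877 and 1622 bp in control libraries 1 to 4. Pcdhgc3 (start 37806410) was covered over 1653, 1713, 1528 and 1608 bp in the transgenic and 1620, 1616, 1622 and 1610 bp in the control libraries. The groups overlapped at both genes, and the coefficient of variation over the 8 libraries was 4.93% at Pcdhgc4 and 3.17% at Pcdhgc3. Pcdhac2 (start 37143678), the last variable exon of the alpha cluster, was covered over 1473, 1473, 1545 and 1611 bp in the transgenic and 1485, 1496, 1505 and 1607 bp in the control libraries. Its 2 groups covered nearly the same range. Pcdhgc5 (start 37819546) was covered over 1208, 1400, 1067 and 1183 bp in the transgenic and 1127, 1363, 1088 and 1570 bp in the control libraries. It was the most variable of the 5, with a coefficient of variation of 14.1%. Pcdhac1 (start 37090136), the narrowest, was covered over 1181, 1156, 1060 and 1052 bp in the transgenic and 1019, 1063, 1116 and 1176 bp in the control libraries. In each library between 7 and 13 of the 52 other promoters were wider than the narrowest C-type promoter, so the classes overlapped gene by gene.

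Height separated the C-type promoters without overlap. For the tallest peak at each promoter, the median over libraries of the authors' fold enrichment ran from 23.9 at Pcdhgc4 to 41.0 at Pcdhac2, against 4.29 at Pcdha8 to 17.8 at Pcdhb1 among the other 52 promoters. Ranked within its own list, the tallest C-type peak stood at a median percentile of 84.4 to 95.1, and those of the other promoters at 25.9 to 79.5.

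The alternate alpha genes ranged from 346 bp at Pcdha8 to 1063 bp at Pcdha12 in mean covered length. Pcdha12 (start 37020230) was covered over 869, 1175, 1133 and 1080 bp in the transgenic and 989, 1174, 1113 and 969 bp in the control libraries. Pcdha1 (start 36930285), the first promoter of the array, was covered over 1394, 941, 736 and 1218 bp in the transgenic and 1086, 651, 390 and 1256 bp in the control libraries. The groups overlapped at both, with a coefficient of variation of 10.3% at Pcdha12 and 35.9% at Pcdha1. Pcdha7 (start 36973811) was covered over 555, 200, 514 and 598 bp in the transgenic and 512, 0, 1038 and 385 bp in the control libraries. Pcdha8 (start 36992467) was covered over 228, 259, 442 and 685 bp in the transgenic and 0, 243, 405 and 508 bp in the control libraries. Each of these narrow promoters lacked a peak in 1 control library, and their groups overlapped.

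The beta genes ranged from 300 bp at Pcdhb9 to 1380 bp at Pcdhb1. Pcdhb1 (start 37264998), which stands apart at the 5′ end of the beta array, was covered over 1628, 1495, 1633 and 1258 bp in the transgenic and 1038, 1164, 1256 and 1571 bp in the control libraries. Pcdhb2 (start 37294840) was covered over 1846, 1434, 1471 and 950 bp in the transgenic and 699, 930, 1108 and 1288 bp in the control libraries. Both were wide in transgenic libraries 1 to 3. The groups overlapped through control library 4 at Pcdhb1 and through transgenic library 4 at Pcdhb2. Pcdhb9 (start 37400855) was covered over 360, 366, 254 and 235 bp in the transgenic and 464, 0, 416 and 305 bp in the control libraries. Pcdhb18 (start 37489465) was covered over 508, 1063, 448 and 523 bp in the transgenic and 0, 200, 606 and 259 bp in the control libraries. Its high value was in transgenic library 2 alone.

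In the gamma cluster the alternate A genes were wider on average than the B genes, and single genes of the 2 classes overlapped. Pcdhga1 (start 37661775), the first of the array, was covered over 1492, 1701, 1320 and 1289 bp in the transgenic and 1397, 1585, 1559 and 1369 bp in the control libraries. Pcdhga3 (start 37674335) was covered over 1426, 1163, 1402 and 1607 bp in the transgenic and 1043, 1105, 1170 and 1591 bp in the control libraries. These were the widest of the A genes, and their groups overlapped. Pcdhga12 (start 37765580) was covered over 521, 593, 587 and 704 bp in the transgenic and 613, 567, 588 and 649 bp in the control libraries. Pcdhga9 (start 37736936) was covered over 974, 530, 818 and 547 bp in the transgenic and 642, 909, 529 and 803 bp in the control libraries. Within the window Pcdhga12 was narrow and steady, with a coefficient of variation of 9.09%, whereas Pcdhga9 had high and low libraries in both groups. The mark of Pcdhga12 ran past the window, with the summit of its tallest peak at a median of 743 bp after the start. From 1 to 1.5 kb after the start it was covered over 73.5%, against 60.3% of the first 1 kb (mean of 8 libraries).

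Among the B genes, Pcdhgb1 (start 37680272) was covered over 1325, 1058, 1020 and 902 bp in the transgenic and 1059, 849, 527 and 969 bp in the control libraries. Pcdhgb6 (start 37742094) was covered over 634, 704, 569 and 665 bp in the transgenic and 882, 445, 493 and 681 bp in the control libraries. The groups overlapped at both, the widest of the B genes. Pcdhgb2 (start 37689859) was covered over 580, 520, 716 and 694 bp in the transgenic and 407, 487, 394 and 669 bp in the control libraries. Pcdhgb7 (start 37751619) was covered over 278, 985, 421 and 529 bp in the transgenic and 309, 399, 796 and 546 bp in the control libraries. Both groups at Pcdhgb7 had 1 library well above the rest, so its coefficient of variation reached 45.9%.

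Spread between libraries differed by class and by breadth. The median coefficient of variation was 4.93% for C-type, 36.7% for alternate alpha, 33.7% for beta, 19.2% for alternate gamma A and 25.4% for alternate gamma B promoters, against 8.97% over all promoters tested. At Pcdhac2, Pcdhgc3, Pcdhgc4 and Pcdhgc5 the 1 kb after the start was fully covered in all 8 libraries. Only the part before the start could vary there, which limits their spread. Narrow promoters vary more throughout the genome, so promoters of like breadth were set side by side. Between 600 and 1000 bp the median was 27.6% for 26 members and 18.9% for all 1582 promoters of that breadth. Between 1000 and 1400 bp it was 16.8% for 12 members and 10.3% for all 4011. Above 1400 bp it was 4.34% for 4 members, 3 of them C-type, and 6.19% for all 6985, and between 200 and 600 bp it was 54.5% for 15 members and 60.4% for all 1154. Members of 600 to 1400 bp were thus more variable over the 8 libraries than the typical promoter of that breadth. This did not hold for the narrowest or the widest. The coefficient takes both groups together, so a difference between the groups adds to it, and the part of that was not tested.

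**Figure D2:**
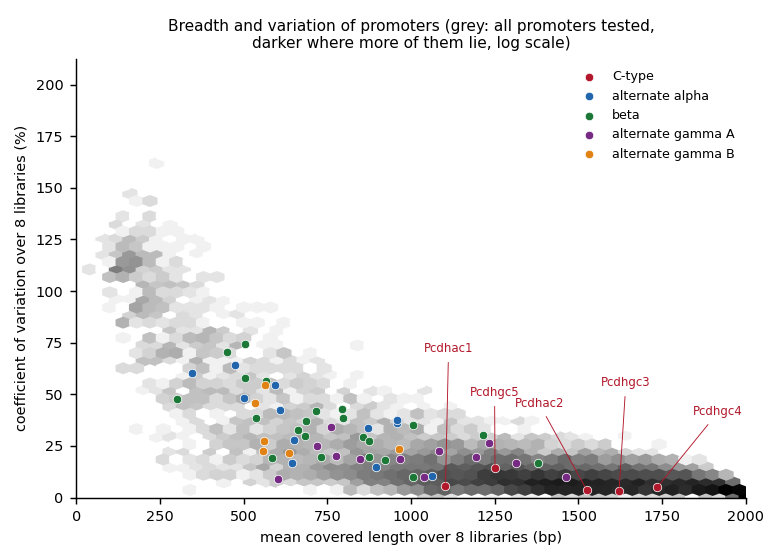
Coefficient of variation of covered length over the 8 libraries (%, vertical axis) against mean covered length (bp, horizontal axis), with the 57 genes coloured by class over the density of all 14260 promoters tested in grey. Pcdhac2, Pcdhgc3 and Pcdhgc4 lie above 1400 bp at 3.17 to 4.93%, where the median of all promoters was 6.19%. Between 1000 and 1400 bp, where that median was 10.3%, Pcdhac1 lies at 5.68% and Pcdhgc5 at 14.1%. Most beta and alternate alpha genes sit to the left at 10.1 to 74.6%.

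The mark lay downstream of the start. The 1 kb after the start held more covered bases than the 1 kb before it at 57 of 57 promoters, with 64.9% of covered bases downstream on average for C-type and 81.7 to 87.1% for the other 4 classes. The summit of the tallest peak lay at a median of 236 bp after the start over all members, with a class median of 151 bp for alternate alpha, 205 bp for alternate gamma B, 272 bp for alternate gamma A, 292 bp for beta and 396 bp for C-type promoters. C-type peaks also extended upstream: 50.0% of C-type promoters in the transgenic and 65.0% in the control libraries were covered 500 bp before the start, against 0 to 14.6% in any other class and group.

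A second stretch of the mark followed about 2 kb after the start, above all in the beta genes. To describe it, 3 stretches were measured, chosen after the average profile had been seen. Beta genes were covered over 67.7 ± 5.77% of the first 1 kb in the transgenic and 56.8 ± 7.76% in the control libraries (SD, n = 4 each). From 1 to 1.5 kb the share was 31.3 ± 3.62% in the transgenic and 19.9 ± 9.98% in the control libraries, and from 1.5 to 2.5 kb it was 73.8 ± 6.16% in the transgenic and 60.4 ± 6.34% in the control libraries. In beta genes the second stretch was thus as well covered as the first, with a dip between them. In the other classes it was less covered than the first. It reached 48.6 ± 7.46% in the transgenic and 36.1 ± 11.2% in the control libraries for alternate alpha genes, and 49.7 ± 12.8% in the transgenic and 38.6 ± 3.72% in the control libraries for alternate gamma A genes. For alternate gamma B genes it was weak, at 27.4 ± 3.13% in the transgenic and 18.6 ± 10.3% in the control libraries. Some coverage of this stretch was present in all 8 libraries at 16 of 22 beta, 5 of 12 alternate alpha, 5 of 12 alternate gamma A and 0 of 6 alternate gamma B genes. A dip was counted where the mean of 8 libraries from 1 to 1.5 kb was below that of both other stretches, by any amount. It was present at 21 of 22 beta genes (all but Pcdhb1), 8 of 12 alternate alpha and 9 of 12 alternate gamma A genes. The count was 5 of 6 for alternate gamma B and 0 of 5 for C-type genes. Some dips were slight, as at Pcdhga5 (44.0% against 44.2% in the second stretch) and Pcdha8 (23.9% against 27.2%). The second stretch was better covered than the first at 15 beta genes, among them Pcdhb9 (64.8% against 27.0%, mean of 8 libraries) and Pcdhb10 (91.3% against 64.9%), and at Pcdha2 and Pcdha7.

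The shape differed from that of other promoters. From 1.5 to 2.5 kb, the 53 members with a mean covered length of 200 to 1400 bp were covered over 56.2 ± 3.65% in the transgenic and 44.2 ± 4.93% in the control libraries. The 5124 other promoters with a listed start and a breadth in the same range were covered over 13.0 ± 0.423% of that stretch in the transgenic and 11.7 ± 0.993% in the control libraries. In the first 1 kb the mean over 8 libraries was 65.5% for these members and 67.9% for those promoters. The nearest starts of neighbouring members lie 4154 bp apart, so the second stretch holds no start of another member. A beta gene is a single exon, so its listed gene end bounds that exon. Where the stretch lies relative to that end was not tested. For the alpha and gamma genes the exons were not in the annotation used here. Whether the stretch ends with their variable exon was not tested.

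**Figure D3:**
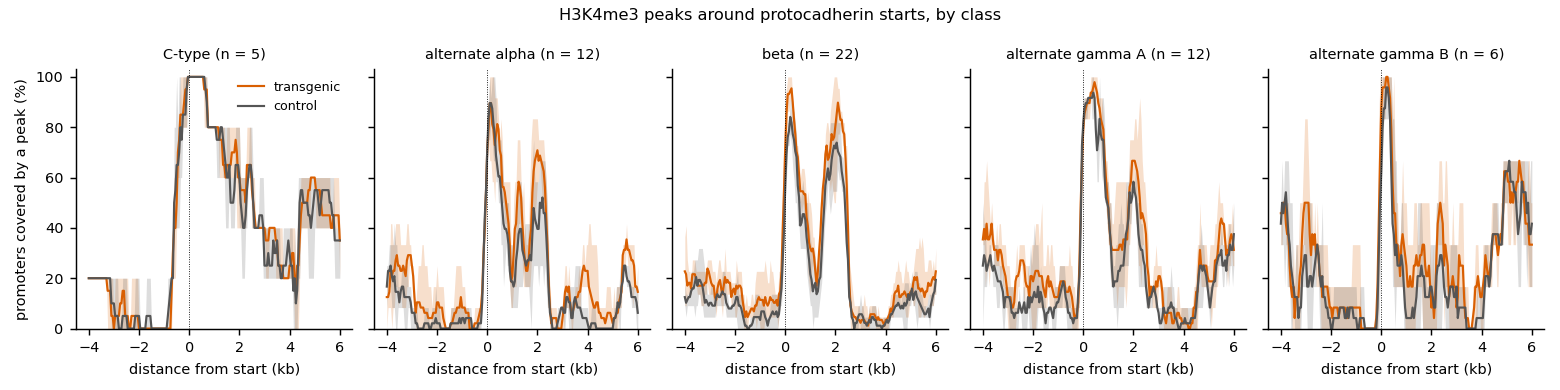
Share of promoters covered by a peak (%, vertical axis) at each distance from the start (kb, horizontal axis), for the 5 classes, as the mean of 4 transgenic and of 4 control libraries with the lowest and highest library shaded. Beta genes show peaks of coverage near the start and about 2 kb after it in both groups, and C-type genes show 1 wide plateau that begins before the start.

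The other end of the genes differed between clusters. The end shared by the alternate alpha and the alpha C-type genes, near 37187657, had 0 covered bp within 1 kb in all 8 libraries. The end shared by the gamma genes, near 37841873, was covered over 777, 1121, 532 and 1023 bp in the transgenic and 524, 734, 984 and 880 bp in the control libraries. The gamma end was thus covered in every library and the alpha end in none. At the beta genes, the other end averaged 249 bp over the 8 libraries against 757 bp at the start. The start was wider at 20 of 22, the exceptions being Pcdhb9 and Pcdhb21. In short beta genes the window at the other end overlaps the stretch 1.5 to 2.5 kb after the start. It does so at Pcdhb9 (37400855 to 37403909) and Pcdhb21 (37513652 to 37516363). That stretch was covered there over 64.8% and 73.3% (mean of 8 libraries), so these measures share bases.

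Transgenic and control promoters were compared by limma on log2 covered length, a test of whether the mark was wider in transgenic neurons. Of 14260 promoters, 0 had an adjusted p under 0.05 in either direction (percent called 0), so no clustered protocadherin was called. At an unadjusted limma p under 0.05, 4 members were higher in transgenic libraries, where 1.96% of all promoters were, and 1 was lower, where 0.75% were. With ordinary in place of robust, trended variance limma called 8 promoters, none of them a member.

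The gamma gene Pcdhga6 had the smallest p among members. It was covered over 902, 972, 981 and 1061 bp in the transgenic and 594, 754, 803 and 716 bp in the control libraries. All 4 transgenic values lay above all 4 control values, and the log2 difference was 0.41 ± 0.11 (SE), with an adjusted p of 1.00 by limma. Pcdhb11 was covered over 934, 891, 1172 and 964 bp in the transgenic and 828, 858, 572 and 785 bp in the control libraries, a log2 difference of 0.35 ± 0.14. Pcdhb7 was covered over 1104, 1124, 976 and 955 bp in the transgenic and 929, 618, 898 and 769 bp in the control libraries, a log2 difference of 0.35 ± 0.15. In both the groups did not overlap either, and the adjusted p by limma was 1.00. Such separation, transgenic above control, was found at these 3 members and at 1.37% of all promoters, and the reverse at 0 members and at 0.505% of all promoters.

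The fourth member with a higher unadjusted value was Pcdhb18, at a log2 difference of 1.25 ± 0.55. It averaged 636 ± 287 bp in the transgenic and 266 ± 252 bp in the control libraries (SD, n = 4 each), and its groups overlapped. The single lower member was Pcdha10, covered over 673, 421, 527 and 416 bp in the transgenic and 644, 835, 842 and 834 bp in the control libraries, a log2 difference of -0.56 ± 0.21. Here transgenic library 1 and control library 1 overlapped, and the adjusted p by limma was 1.00 for both genes.

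Read as a list, 46 of the 57 members had a log2 difference above 0, against 48.6% of all promoters, and their median was 0.19, against -0.00 over all promoters. Beta genes were above 0 at 22 of 22, with a median of 0.27. Alternate alpha genes were above 0 at 9 of 12 (median 0.18), alternate gamma B at 5 of 6 (median 0.19) and alternate gamma A at 7 of 12 (median 0.06). C-type genes were above 0 at 3 of 5, with a median of 0.00 and values from -0.07 to 0.02. Neighbouring members share library and chromatin, so these counts are a description. Without transgenic library 1, the one with the most peaks, 43 members and 19 beta genes were above 0, and the beta median was 0.17. Beta genes above 0 numbered 18 with a window of 500 bp, 20 with one of 2 kb and 19 with equal numbers of top-ranked peaks. In the 500 bp window the median was 0.08 for alternate alpha and 0.04 for alternate gamma A genes. In the 2 kb window it was 0.30 for alternate alpha, 0.21 for alternate gamma A and 0.40 for alternate gamma B genes.

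The C-type genes are also where the data set the narrowest bounds. The 95% interval of all 5 excluded a change of 1.5-fold in either direction, as it did for 83.7% of all promoters. It did so for 9 of 12 alternate gamma A, 3 of 12 alternate alpha, 2 of 22 beta and 2 of 6 alternate gamma B genes. For the other 36 members a difference of 1.5-fold lay within the interval. Covered length cannot exceed 2001 bp. A 1.5-fold rise was thus out of reach at Pcdhac2, Pcdhgc3 and Pcdhgc4, with control means of 1523, 1617 and 1760.5 bp. For a rise, the exclusion at these genes was set by the window, as at other wide promoters.

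**Figure D4:**
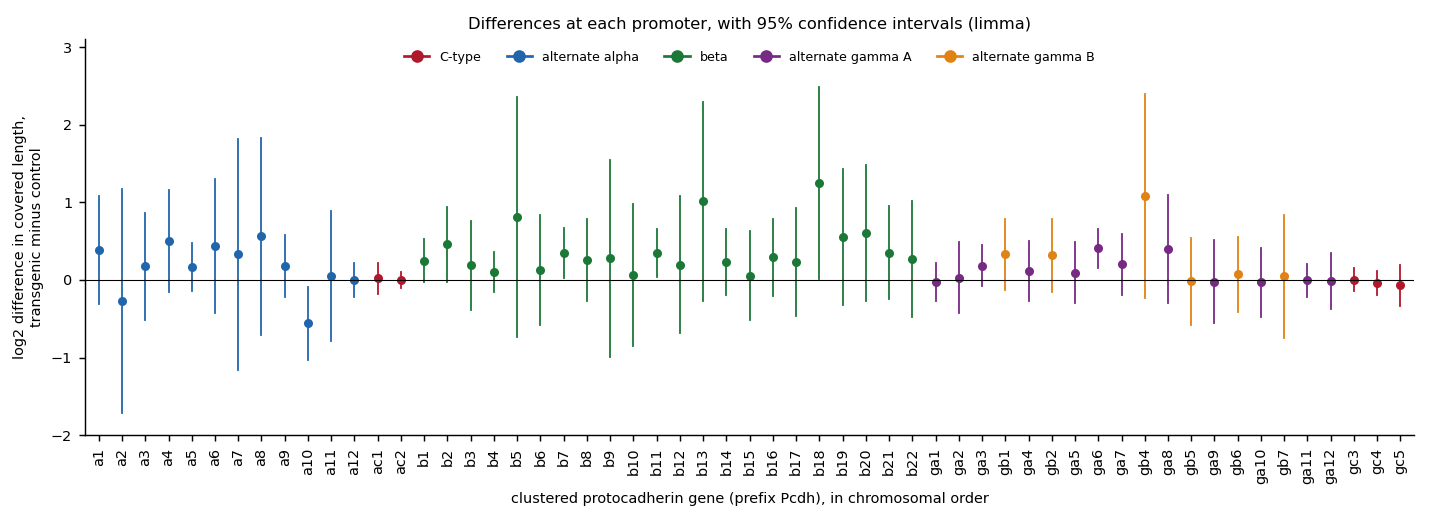
Log2 difference in covered length, transgenic minus control (vertical axis), with its 95% confidence interval from limma, for the 57 genes in chromosomal order and coloured by class. All 22 beta genes lie above 0, the 5 C-type genes lie within 0.07 of 0 with short intervals, and most intervals cross 0.

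Over the whole 1 Mb interval, peaks covered 222, 183, 173 and 176 kb in the transgenic and 118, 135, 143 and 163 kb in the control libraries. The groups did not overlap, and the means were 189 ± 22.9 kb in the transgenic and 140 ± 18.6 kb in the control libraries, a ratio of 1.35. The interval ranked between 15 and 30 in the transgenic and between 6 and 18 in the control libraries among 2453 stretches of 1 Mb on the autosomes. The ratio was not particular to it. Of the 154 such stretches with at least 50 kb covered on average, 55.2% also had all 4 transgenic libraries above all 4 control libraries, and their median ratio was 1.37. Of the 2183 stretches with a peak in every library, 7.19% were separated in this way. As a share of autosomal coverage the interval held 0.398 to 0.476% in the transgenic and 0.327 to 0.392% in the control libraries, a separation found at 4.08% of the 2183 stretches. With equal numbers of top-ranked peaks these shares overlapped, at 0.389 to 0.434% in the transgenic and 0.327 to 0.390% in the control libraries. All autosomes together had a ratio of 1.16.

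Most of the difference lay away from the starts, as did most of the length of the interval. The 57 promoter windows held 49.3 to 54.8 kb of covered bases in the transgenic and 39.9 to 50.0 kb in the control libraries, which overlapped. The remainder of the interval held 124 to 168 kb in the transgenic and 78.2 to 113 kb in the control libraries, which did not. As a share of length, the windows were covered over 45.1% on average in the transgenic and 39.5% in the control libraries. The remainder was covered over 15.5% in the transgenic and 10.7% in the control libraries. In percentage points the difference was 5.62 in the windows and 4.81 in the remainder. The difference in the whole interval was 60.5 kb between the lists with over 10000 X-chromosome peaks and 37.6 kb between those with fewer. It was 31.1 kb when each list was restricted to its 51903 top-ranked peaks, against 49.0 kb with all peaks.

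**Figure D5:**
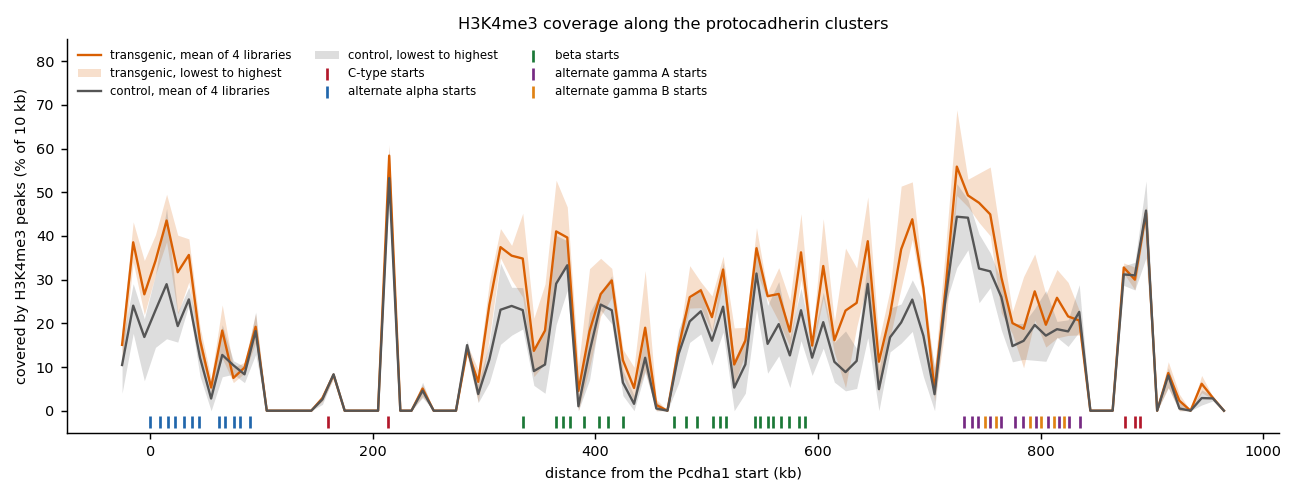
Share of each 10 kb covered by peaks (%, vertical axis) against distance from the Pcdha1 start (kb, horizontal axis), as the mean of 4 transgenic and of 4 control libraries with the lowest and highest library shaded, and the starts of the 57 genes as ticks coloured by class. The transgenic mean runs above the control mean over part of the alternate alpha array, the beta array and the first part of the gamma array. It also lies above the control mean over Pcdhac2, where the groups overlap, and the 2 means lie together over the gamma C-type genes.

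The union of the 8 lists divided the interval into 332 regions seen in 2 or more libraries, out of 72683 in the genome. limma called 33 regions higher in transgenic libraries (0.0454%) and 2 lower (0.00275%), and 0 of these lay in the interval. At an unadjusted limma p under 0.05, 31 of the 332 were higher, where 4.5% of all regions were, and 2 were lower, where 1.81% were. The 2 lower regions were those at the starts of Pcdha10 and Pcdhgc5. Centring lowered the median of all regions by 0.11, and without it the region of Pcdhgc5 had a log2 difference of -0.01 in place of -0.12 and was not among the lower ones. In 21 of the 332 all transgenic values lay above all control values, against 3.26% of all regions, and the reverse held for 0, against 0.169%. A log2 difference above 0 was found at 228 of 332 (68.7%), against 52.6% of all regions. Without centring it was found at 269 (81.0%), against 69.6% of all regions. With centring it was found at 168 of 234 regions that touched neither a promoter window nor the window of another gene end.

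The widest region was that of Pcdhac2, from 37143068 to 37149732, covered over 5840 ± 323 bp in the transgenic and 5325 ± 478 bp in the control libraries (SD, n = 4 each). The region of Pcdhgc5, from 37818799 to 37823266, was covered over 3762 ± 245 bp in the transgenic and 3792 ± 148 bp in the control libraries. That of Pcdhgc3, from 37805698 to 37809038, was covered over 3065 ± 201 bp in the transgenic and 2855 ± 195 bp in the control libraries. Of the 4 widest regions, 3 were thus C-type promoters, and at these 3 the adjusted p by limma was 0.702 or higher. Without centring the region of Pcdhac2 had a log2 difference of 0.13 in place of 0.03, with an adjusted p of 0.599 by limma. That of Pcdhgc3 had 0.10 in place of -0.01.

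The exception was a region from 37652461 to 37658181, 3594 bp before the start of Pcdhga1, which touches the annotated locus Gm8242. It was covered over 4129 ± 797 bp in the transgenic and 3249 ± 781 bp in the control libraries. Between the alpha and beta arrays a region from 37216664 to 37218371, 29007 bp past the shared alpha end, was covered in all 8 libraries, over 1393 ± 116 bp in the transgenic and 1501 ± 136 bp in the control libraries. It overlaps no annotated gene. The alpha array is known to have an enhancer beyond its constant exons, and whether this region is that enhancer was not tested.

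The smallest adjusted p in the interval was 0.136 by limma, for a region from 37248034 to 37250025, 14973 bp before Pcdhb1. It was covered over 1676, 1788, 1185 and 1341 bp in the transgenic and 818, 677, 704 and 951 bp in the control libraries. All transgenic values lay above all control values, with a log2 difference of 0.74 ± 0.17 (SE). The next, from 37568026 to 37569456 and 49673 bp from Pcdhb22, was covered over 1186, 999, 1006 and 907 bp in the transgenic and 203, 286, 200 and 653 bp in the control libraries. Its log2 difference was 1.37 ± 0.31 with an adjusted p of 0.146 by limma, and neither region overlaps an annotated gene.

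Among the genes inside the interval that are not protocadherins, Taf7, which encodes a subunit of the general transcription factor TFIID, stands between the beta and gamma arrays. Its promoter was covered over 1574 ± 57.8 bp in the transgenic and 1576 ± 102 bp in the control libraries (SD, n = 4 each). Its coefficient of variation, 4.86%, was close to that of the C-type genes. Slc25a2, a mitochondrial carrier gene beside it, averaged 463 ± 316 bp in the transgenic and 358 ± 473 bp in the control libraries.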

How the data were processed

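Per the submitters' processing notes, mm10 was the build, and MACS2, limma and DiffBind were used along with deepTools 3.0.1, Bowtie2 2.0.2, FastQC 0.11.5 and SAMtools 1.3.1. What each tool did, how reads that match several loci were treated and which library was the background is not given in the sources used here. This bears on gene copies of similar sequence read as 50-bp single ends. The authors deposited 1 peak list per library. Each row of a deposited list has a whole-number score, a fold enrichment (a ratio), a −log10 p-value, a −log10 q-value and a summit position for its peak. The authors' score was not used, and fold only describes or ranks peaks within a list. The 2 inputs were not analysed here.

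Overlapping peaks were merged within a library, and covered bases were counted within 1 kb to each side of the start (2001 bp). Gene positions came from RefSeq GRCm38.p6 (mm10 coordinates). For 17492 other genes the listed start with the most coverage was used. For 4338 genes with no listed start the better covered gene end was used, and so by choice their promoters are covered. Members use their lower coordinate, since all are transcribed in 1 direction. log2(covered bp + 100) was centred on the median of each library over promoters with a peak in all 8 libraries, and for regions over the regions with a peak in all 8. It was tested with limma 3.58.1 (R 4.3.3; trended, robust variance, two-sided), with p-values adjusted by Benjamini and Hochberg over all promoters, or all regions, and a threshold of 0.05. Log2 differences are on this scale and understate changes at narrow promoters. Counting used Python 3.11.15. Coverage counting was checked against a direct count around peaks of transgenic library 1, and the limma step was tested on simulated data.

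The members and lists were chosen with earlier results of these data known. Per-library values are given for every C-type gene, for the 2 widest and the 2 narrowest of each other class, and for the 3 members with the smallest p in each direction. Pcdhb18, Pcdha2, Pcdha7, Pcdhb10 and Pcdhb21 are also named for values seen in a count. Alternatives were windows of 500 bp and 2 kb, pseudocounts of 50 and 200 bp, no centring, other filters, a −log10 q of at least 3, equal numbers of top-ranked peaks, a replicate block and leaving out each library. No promoter sequence is printed. Replicate numbers were not taken as pairs, because the deviations of same-numbered libraries did not correlate in every pair.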

Additional observations from a re-analysis of the deposited data

Results flagged for a closer look

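The values below stood apart from the other 3 libraries of their group by Dixon's test at the 95% level, which chance meets in about 1 of 20 groups, and 130 groups were checked. In transgenic libraries, Pcdhb18 was covered over 1063 bp in library 2, against 448 to 523 bp in the other 3. Pcdhgb4 was covered over 1037 bp in transgenic library 1, against 622 to 640 bp, and Pcdhga2 over 660 bp in the same library, against 1411 to 1562 bp. In the part of the interval outside promoter windows, transgenic library 1 held 168 kb of covered bases, against 124 to 131 kb in the others. In control libraries, Pcdha10 was covered over 644 bp in library 1, against 834 to 842 bp, and Pcdhb12 over 262 bp in the same library, against 872 to 943 bp. Pcdhb21 was covered over 910 bp in control library 2, against 434 to 484 bp. Pcdhac2 was covered over 1607 bp in control library 4, against 1485 to 1505 bp. Of the 8 values, 3 belong to transgenic library 1, the library with 31362 peaks on the X chromosome, and the part of that in these values was not tested.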

How the results depend on the processing

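Of 14260 promoters 0 were called under each alternative except ordinary limma variance, which called 8. The 35 regions called in the genome became 118 without centring, 296 with ordinary variance, 21 with the X-chromosome split as a covariate (chosen after seeing the data), and 0 with regions seen in at least 4 libraries, with equal numbers of top-ranked peaks and with the replicate block. Leaving out 1 library gave 15 (without transgenic 1) to 54 (without control 3). Same-numbered libraries correlated at r = 0.04, -0.02, -0.21 and 0.43, and the replicate block left 0 promoters called. The interval held 332 of the 72683 regions tested as reported. Of the 118 regions called without centring 1 lay in the interval, and of the 296 with ordinary variance 4 did. Without control 4 it held 1 called region, and the number called in the genome lay between 15 and 54.

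The excess of C-type over other members, 658 bp, was 414 bp in the 500 bp window and 883 bp in the 2 kb window, and 643 to 676 bp without each library. Members with a peak in all libraries numbered 49 to 53 without each library, members above 0 numbered 43 to 48, their median log2 difference was 0.14 to 0.23, and the interval difference was 37.8 to 56.8 kb. With top-ranked peaks 40 members were above 0. Their median, 0.19 as reported, was 0.089 in the 500 bp window and 0.28 in the 2 kb window. In the 2 kb window 45 of 57 members were above 0, against 46.7% of all promoters, and 0 members were called. There 11 members were higher at an unadjusted limma p under 0.05, against 4 as reported. The share of all promoters past that limit in the 2 kb window is not given here, so the 11 cannot be set against it.

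Coverage of alternate gamma B genes from 1.5 to 2.5 kb, 23.0% over 8 libraries, was 16.1% with top-ranked peaks.

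Some members' differences changed sign, with no call involved, also at Pcdha7, Pcdhb9, Pcdhb1 and Pcdhga3, reported at 0.33, 0.28, 0.25 and 0.18. With the 500 bp window Pcdhgc4 had 0.041, Pcdhgc5 0.019, Pcdha12 0.018, Pcdhb1 -0.026, Pcdhga3 -0.040, Pcdhga1 0.027 and Pcdhgb7 -0.026. With the 2 kb window Pcdhac2 had -0.010, Pcdha12 0.039 and Pcdhga1 0.14. With top-ranked peaks Pcdha7 had -0.74 and Pcdhgb7 -0.43. Without each library the ranges that cross 0 were -0.063 to 0.051 for Pcdha12, -0.37 to 0.80 for Pcdha7, -0.050 to 0.070 for Pcdhac1, -0.028 to 0.022 for Pcdhac2, -0.29 to 0.55 for Pcdhb9, -0.10 to 0.044 for Pcdhga1, -0.055 to 0.011 for Pcdhga12, -0.21 to 0.10 for Pcdhga9, -0.047 to 0.24 for Pcdhgb6, -0.23 to 0.26 for Pcdhgb7, -0.047 to 0.048 for Pcdhgc3 and -0.13 to 0.00018 for Pcdhgc5. The cause was not tested. Without read counts, a narrow promoter with no peak may fall under the calling limit of its library.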

Other observations

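Of 12 protocadherin genes outside the clusters, 11 had a peak in all 8 libraries and Pcdh12 had none. Pcdh7 and Pcdh10 were covered over the whole 2001 bp in all 8 libraries. Of the 11, 6 had a log2 difference above 0 and 5 below, with a median of 0.00, and limma called 0. Pcdh8 averaged 1745 ± 209 bp in the transgenic and 1553 ± 219 bp in the control libraries (SD, n = 4 each). Pcdh15 averaged 965 ± 109 bp in the transgenic and 1029 ± 87.5 bp in the control libraries.

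Of 16 genes for chromatin factors known to act on the clusters, 13 had a peak in all 8 libraries, and no peak was found at the gene ends used for Rad21 and Nipbl. Of the 14 tested, 6 had a log2 difference above 0 and 8 below, with a median of -0.01, and limma called 0. Ctcf, which encodes the DNA-binding factor that anchors promoter loops in the clusters, averaged 1581 ± 302 bp in the transgenic and 1498 ± 234 bp in the control libraries. Smc1a, a cohesin subunit gene, averaged 1736 ± 114 bp in the transgenic and 1595 ± 138 bp in the control libraries, and Smchd1, a chromatin silencing gene, 1913 ± 177 bp in the transgenic and 1968 ± 63.1 bp in the control libraries.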
